A study of Mus musculus with 8 samples.

Results

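The 10 genes described here encode chaperones and co-chaperones of the endoplasmic reticulum (ER) lumen: Hspa5, Hyou1, Sdf2l1, Dnajb9, Dnajb11, Dnajc3, Hsp90b1, Calr, Manf and Creld2. They were picked by gene symbol from the 54427 genes of the authors' table, all 10 were found there, and all 10 passed the filter on low values. RNA was sequenced from primary pancreatic acinar cells, the enzyme-secreting cells of the exocrine pancreas, from wild-type mice; strain, age and the way the cells were isolated are not given in the sources used here. The 4 AP_OCA libraries carry, by their titles, injury by the hormone fragment cholecystokinin octapeptide (CCK, 1 µM for 6 h) together with OCA, commonly short for obeticholic acid, which activates FXR, a nuclear receptor for bile acids. The 4 AP libraries carry the CCK injury alone, so both groups were injured and no uninjured cells enter the comparison. The treatment text states 2.5 µM OCA for all 8 libraries alike, and the reading that AP cells received none rests on the titles. The labels do not say whether replicates came from separate animals or preparations, so p-values measure the spread between these libraries, which may be technical. In bulk RNA, fewer cells of a type and less RNA per cell cannot be told apart.

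Proteins that enter the ER fold with the help of chaperones, and acinar cells, which make digestive enzymes in bulk, hold a large ER. When unfolded proteins gather there, the sensors IRE1, PERK and ATF6 start the unfolded protein response, which raises the transcripts of ER chaperones. The centre of the system is BiP, encoded by Hspa5, an Hsp70 that binds and releases unfolded chains in an ATP-driven cycle; J-domain proteins hand it clients and start ATP hydrolysis, and nucleotide exchange factors let the client go.

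Levels are given as CPM, the deposited value taken back from its log2 scale and scaled to a sum of 1000000 per library. Judged from the values themselves, the authors' table had been quantile normalised. A CPM value therefore stands for a position in a distribution that all libraries share and not for a share of reads. Read totals are unknown. Fold changes are log2 differences of CPM + 1, AP_OCA minus AP, with their standard error (SE), from limma across all genes averaging 1 CPM or more over the libraries compared, and a gene was called at a Benjamini-Hochberg adjusted p of at most 0.05.

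One library stood apart before any comparison. AP_OCA replicate 2 correlated with the others at 0.435 to 0.562 across 7218 genes, against 0.841 to 0.981 among the other 7. Its 10 plasma cell markers summed to 4774 CPM, against 48.2 to 90.6 CPM in AP_OCA replicates 1, 3 and 4 and 71.5 to 99.96 CPM in AP, where most of the sum was Sdc1, which epithelial cells also express. The antibody chain genes Igkc and Igha stood at 2226 and 1770 CPM in that library and at no more than 6.21 CPM in any other. Plasma cells secrete antibody and are themselves rich in ER chaperones, as background; their part in the values of AP_OCA replicate 2 was not tested. Lymphocyte markers (993 CPM) and macrophage and myeloid markers (1049.6 CPM) were also highest there. So were stellate and fibroblast markers (655 CPM) and endothelial markers (257 CPM), while islet and ductal markers were lowest. All 21 acinar markers were detected in the table, with a sum of 487166 to 528013 CPM in AP_OCA replicates 1, 3 and 4, 466745 CPM in replicate 2 and 519517 to 538958 CPM in AP. That sum is carried by a few top-ranked enzymes such as Ctrb1 and Pnlip, whose values quantile normalisation holds nearly fixed. In AP_OCA replicate 2, 8 of the 21 acinar markers lay over 2-fold below the lowest other library: the acinar transcription factor gene Bhlha15 stood at 5.05 CPM, against 63.1 to 120.3 CPM in the other 7, and Ptf1a at 1.121 CPM, against 17.4 to 34.5 CPM. Levels and fold changes of the members are therefore given for AP_OCA replicates 1, 3 and 4 against AP (7 libraries), with AP_OCA replicate 2 beside them. The fit of all 8 libraries is given for the members and in brief for the other ER and chaperone lists. Other results below are over the 7 libraries unless stated.

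Hsp90b1 and Manf rose with OCA in the 7 libraries, at 4.44 and 2.80 times their AP means. The other 8 did not pass: Hspa5, Dnajc3, Creld2, Sdf2l1, Calr and Dnajb11 had log2 fold changes between 0.37 and 0.98, and Dnajb9 and Hyou1 had 0.042 and 0.0025. Thus 2 of 10 were called higher and 0 lower, where 0.854% of the 10894 tested genes were called higher and 1.59% lower (2.44% in either direction). All 10 log2 fold changes were above 0, as were 50% of those of all tested genes. In 7 of 10 members every AP_OCA library lay above every AP library, where 11.1% of all tested genes did so. The same 7, namely Hsp90b1, Manf, Hspa5, Dnajc3, Creld2, Sdf2l1 and Dnajb11, had an unadjusted p under 0.05 in the limma fit, where 11.8% of all genes had one with higher values in AP_OCA and 25.7% in either direction. The median log2 fold change of the members was 0.54, against -9.0e-05 over all tested genes. These counts describe a list whose members were chosen with results of these data known.

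With all 8 libraries no member was called, and no gene was (0% of 11311 tested by limma; 1830, or 16.2%, had an unadjusted p under 0.05). Of the members, Hsp90b1 and Manf had an unadjusted p under 0.05, where 7.31% of all genes had one with higher values in AP_OCA. In Hsp90b1, Manf and Dnajb11 all 4 AP_OCA libraries lay above all 4 AP libraries, where 6.75% of tested genes did so; no member lay below throughout, as 8.57% of tested genes did. Of the 10 log2 fold changes 8 were above 0, against 49.1% over all genes. The median was 0.37 over the members and -0.01 over all genes. With limma quality weights per library, which lower the weight of a library that departs from its group, 5 members were called higher, namely Manf, Hsp90b1, Hspa5, Creld2 and Dnajc3, where that fit called 4.25% of all tested genes higher (481 of 11311).

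**Figure D1:**
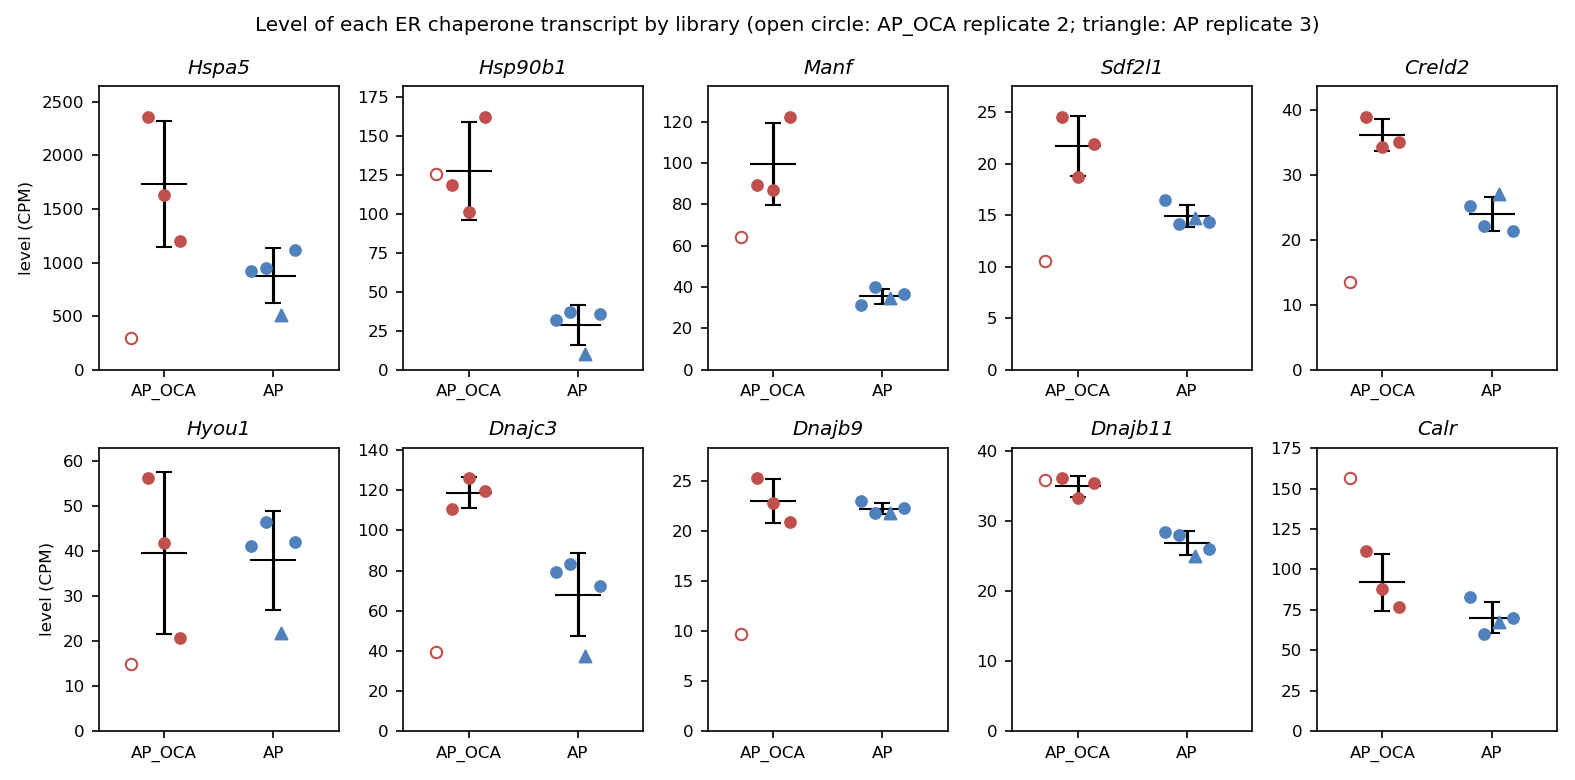
Level of each of the 10 transcripts in CPM (vertical axis, from 0) in every library, AP_OCA left and AP right; bars are the mean ± SD of AP_OCA replicates 1, 3 and 4 and of the 4 AP libraries, the open circle is AP_OCA replicate 2 and the triangle AP replicate 3. Hsp90b1 and Manf lie higher in all 4 AP_OCA libraries, Dnajb9 and Hyou1 overlap, and the open circle is the lowest point in 5 panels.

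Hspa5 was the most abundant member. It stood at 2362, 1631 and 1204 CPM in AP_OCA replicates 1, 3 and 4 and at 291 CPM in replicate 2, against 925, 952, 513 and 1117 CPM in AP replicates 1 to 4. Without AP_OCA replicate 2 the groups did not overlap, although the lowest AP_OCA value and the highest AP value were close. The means were 1732 ± 586 CPM (SD, n = 3) and 877 ± 257 CPM (n = 4), and the log2 fold change of 0.98 ± 0.28 SE did not pass (adjusted p = 0.0665 by limma). With all 8 libraries it was 0.35 (95% confidence interval -1.03 to 1.73). In rank order of all genes, Hspa5 held places 38 to 51 in AP_OCA replicates 1, 3 and 4, place 153 in replicate 2, and places 53 to 93 in AP.

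None of the 3 J-domain co-chaperones of BiP passed. Dnajc3 encodes P58IPK, a lumenal J protein also known for restraining the kinase PERK. It stood at 111, 126 and 119.8 CPM in AP_OCA replicates 1, 3 and 4 and at 39.5 CPM in replicate 2, against 79.4, 83.0, 37.5 and 72.2 CPM in AP. The 3 AP_OCA libraries lay above every AP library, and AP replicate 3 lay well below the other AP libraries. The log2 fold change was 0.86 ± 0.24 SE (adjusted p = 0.0643 by limma), and 0.60 ± 0.15 without AP replicate 3 (adjusted p = 0.0798). Dnajb11 encodes ERdj3, which binds unfolded chains and passes them to BiP. It stood at 36.1, 33.3 and 35.4 CPM in AP_OCA replicates 1, 3 and 4 and at 35.8 CPM in replicate 2, against 28.5, 28.0, 25.0 and 25.96 CPM in AP. All 4 AP_OCA libraries lay above all 4 AP libraries, at a small difference (0.37 ± 0.16 SE, adjusted p = 0.179 by limma without replicate 2). Dnajb9 encodes ERdj4, a J protein that loads BiP onto IRE1 and so restrains that sensor. It stood at 25.3, 22.8 and 20.9 CPM in AP_OCA replicates 1, 3 and 4 and at 9.75 CPM in replicate 2, against 23.0, 21.8, 21.9 and 22.3 CPM in AP. The AP libraries spanned a narrow range that lay inside that of AP_OCA, and the 95% confidence interval of the log2 fold change ran from -0.32 to 0.41. With each library's trend with transcript length and GC content removed, the Dnajb9 log2 fold change was -0.39 (adjusted p = 0.246).

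The 2 other partners in the BiP cycle did not pass either. Sdf2l1 encodes a stress-induced lumenal protein that forms a complex with ERdj3. It stood at 24.6, 18.7 and 21.9 CPM in AP_OCA replicates 1, 3 and 4 and at 10.6 CPM in replicate 2, against 16.5, 14.1, 14.7 and 14.3 CPM in AP. The 3 AP_OCA libraries lay above every AP library, and replicate 2 below every one (log2 fold change without it 0.51 ± 0.18 SE, adjusted p = 0.112 by limma). Hyou1 encodes GRP170, a large Hsp70 relative that acts as a nucleotide exchange factor for BiP. It stood at 56.3, 41.9 and 20.6 CPM in AP_OCA replicates 1, 3 and 4 and at 14.95 CPM in replicate 2, against 41.3, 46.6, 21.9 and 42.1 CPM in AP. Its levels spread within both groups: AP_OCA replicate 4 was as low as AP replicate 3. The 95% confidence interval of its log2 fold change ran from -0.74 to 0.75, so changes of either sign within those bounds are compatible with these 7 libraries. Leaving out AP replicate 3 gave -0.24, leaving out AP_OCA replicate 4 gave 0.40, and leaving out AP_OCA replicate 1 gave -0.30.

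Hsp90b1 encodes GRP94, the Hsp90 of the ER lumen, which completes the folding of a limited set of clients such as integrins and Toll-like receptors. It stood at 118, 101 and 162 CPM in AP_OCA replicates 1, 3 and 4 and at 125 CPM in replicate 2, against 31.5, 37.0, 10.2 and 36.0 CPM in AP. The lowest AP_OCA library lay far above the highest AP library, replicate 2 fell inside the AP_OCA range, and AP replicate 3 was the lowest of all. In rank order of all genes it held places 269 to 444 in the 4 AP_OCA libraries and places 1392 to 4569 in AP. The means were 127 ± 31.5 CPM (SD, n = 3) and 28.7 ± 12.6 CPM (n = 4), and the gene rose by 2.23 ± 0.41 SE on the log2 scale (adjusted p = 0.0403 by limma). Without AP replicate 3 the log2 fold change was 1.81 ± 0.19 (adjusted p = 0.00861). The call was lost when any of AP replicates 1, 2 and 4 or AP_OCA replicates 3 and 4 was left out (adjusted p up to 0.181), and it was also lost under limma without a trend (0.056) and with no filter on low values (0.182).

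Manf encodes a small ER protein that binds BiP and is released from stressed cells, with protective effects described in several tissues. It stood at 89.4, 86.98 and 122 CPM in AP_OCA replicates 1, 3 and 4 and at 64.2 CPM in replicate 2, against 31.2, 39.9, 34.5 and 36.8 CPM in AP. All 4 AP_OCA libraries lay above all 4 AP libraries, and the AP libraries, replicate 3 included, lay close together. The gene rose by 1.45 ± 0.18 SE on the log2 scale (adjusted p = 0.00447 by limma), and it was called in each of the 7 fits that leave out 1 further library (1.29 to 1.54). With no filter on low values it was not called (adjusted p = 0.182). Creld2 encodes another small ER stress protein that is secreted in part and has been linked to disulphide exchange. It stood at 39.0, 34.4 and 35.2 CPM in AP_OCA replicates 1, 3 and 4 and at 13.5 CPM in replicate 2, against 25.2, 22.2, 27.0 and 21.4 CPM in AP. The 3 AP_OCA libraries lay above every AP library (0.58 ± 0.17 SE, adjusted p = 0.0715 by limma), and replicate 2 below every one.

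Calr encodes calreticulin, the soluble lectin chaperone that holds monoglucosylated glycoproteins and buffers lumenal calcium. It stood at 112, 87.7 and 76.8 CPM in AP_OCA replicates 1, 3 and 4 and at 157 CPM in replicate 2, against 82.9, 59.9, 67.4 and 70.0 CPM in AP. AP_OCA replicate 4 lay below AP replicate 1, so the groups overlapped (0.38 ± 0.18 SE, adjusted p = 0.208 by limma). Calr was the member that was highest in AP_OCA replicate 2, at 2.24 times the AP mean.

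**Figure D2:**
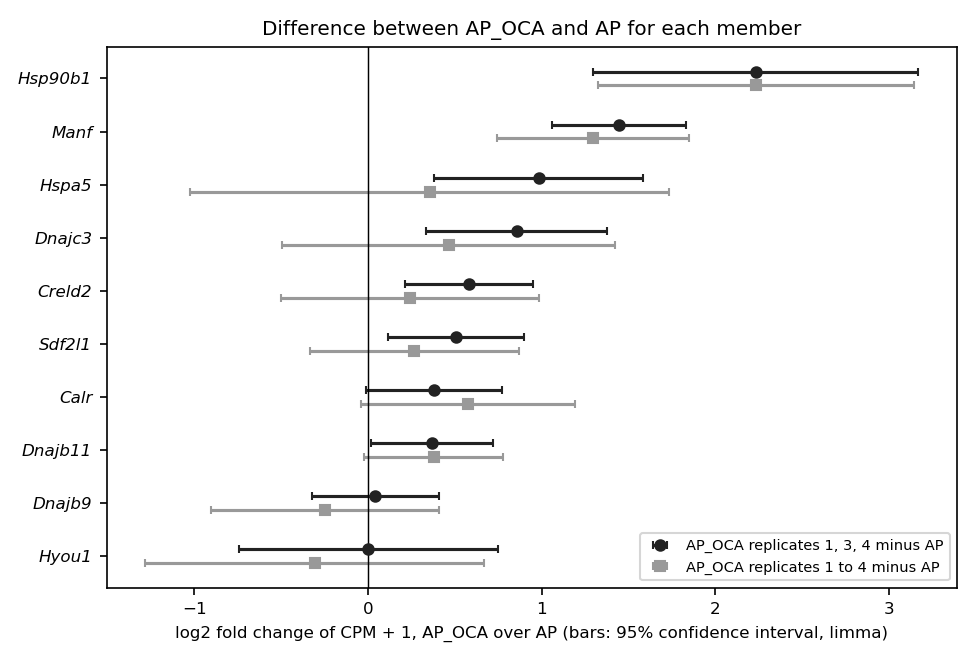
Log2 fold change of CPM + 1, AP_OCA over AP (horizontal axis), with its 95% confidence interval from limma, for AP_OCA replicates 1, 3 and 4 against AP (circles) and for all 4 AP_OCA replicates against AP (squares). Hsp90b1 (2.23) and Manf (1.45) lie farthest to the right. Including AP_OCA replicate 2 lowers the estimates of Hspa5, Dnajc3, Creld2 and Sdf2l1. It also widens their intervals and that of Dnajb11, and all of these intervals then cross 0.

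Set against the AP mean, AP_OCA replicate 2 split the members. Hspa5, Sdf2l1, Creld2, Hyou1 and Dnajb9 were lower there than in any other library, at 0.33, 0.71, 0.56, 0.39 and 0.44 times the AP mean, and Dnajc3 was at 0.58 times. Hsp90b1, Manf, Dnajb11 and Calr were above every AP library, at 4.36, 1.81, 1.33 and 2.24 times. AP_OCA replicate 1 was above every AP library for all 10 members, replicate 3 for 8 and replicate 4 for 7. AP replicate 3 was the lowest AP library for Hspa5, Hsp90b1, Hyou1, Dnajc3 and Dnajb11, but not for Manf, Sdf2l1, Creld2, Dnajb9 and Calr. The shares of all tested genes that match these counts by single library were not computed, so the counts are a description only.

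**Figure D3:**
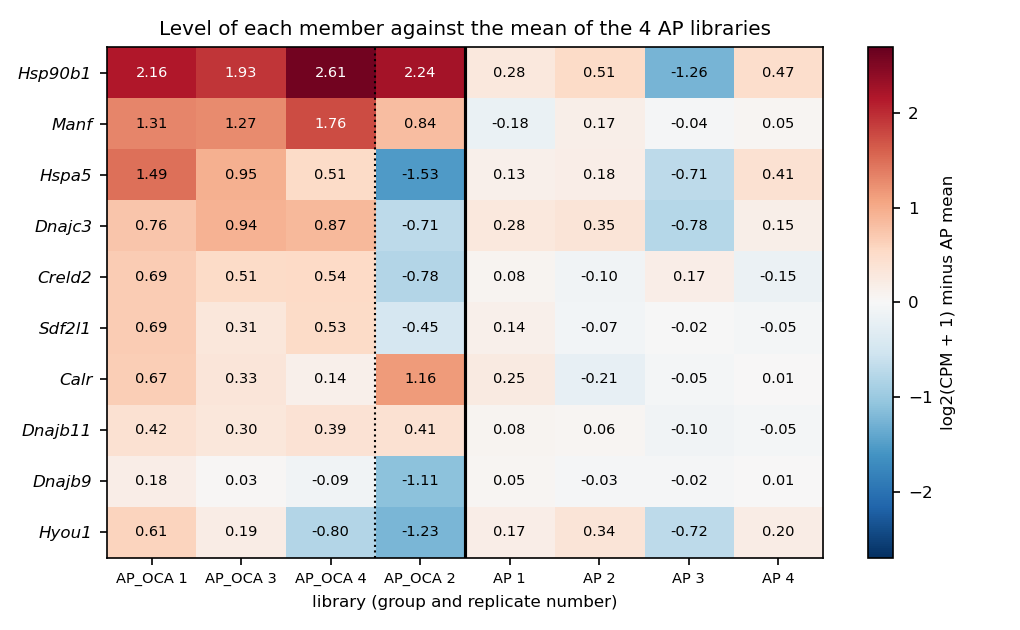
Log2(CPM + 1) of each member (rows, ordered by their log2 fold change in 7 libraries) minus the mean of the 4 AP libraries, in each library (columns, AP_OCA left of AP, with AP_OCA replicate 2 marked off by a dotted line). AP_OCA replicate 1 is positive in every row, AP_OCA replicate 2 holds values of both signs, and AP replicate 3 is low for Hsp90b1, Hspa5, Dnajc3 and Hyou1.

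Ratios between members inside a library do not depend on a common scaling factor. Quantile normalisation is not such a factor, and it can change these ratios. The log2 ratio of Hsp90b1 to Hspa5 was -4.32, -4.01 and -2.89 in AP_OCA replicates 1, 3 and 4 and -1.22 in replicate 2, against -4.87, -4.69, -5.66 and -4.96 in AP. In these normalised values the ratio was thus higher in every AP_OCA library than in any AP library. Without AP_OCA replicate 2, the ratios of Hyou1 and Dnajb9 to Hspa5 were lower in every AP_OCA library than in any AP library: they averaged -5.51 ± 0.31 and -6.18 ± 0.35 in AP_OCA replicates 1, 3 and 4 (SD, n = 3), against -4.53 ± 0.16 and -5.24 ± 0.48 in AP (n = 4). Replicate 2 did not share this: its Hyou1 ratio of -4.28 lay above every AP library and its Dnajb9 ratio of -4.90 inside the AP range. The other 6 ratios to Hspa5 overlapped between AP_OCA replicates 1, 3 and 4 and AP. Hspa5 itself lay above every AP library in AP_OCA replicates 1, 3 and 4, so a gene with little difference tends to a lower ratio there. The share of all genes whose ratio to Hspa5 did not overlap was not computed. These ratios are given as a description, with no test.

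Per kilobase of the longest annotated transcript, Hspa5 led in both groups, at 472 ± 159 CPM per kb in AP_OCA replicates 1, 3 and 4 (SD, n = 3) and 239 ± 70.0 CPM per kb in AP (n = 4). Among AP libraries Calr followed at 32.1 ± 4.38 CPM per kb, and its range of 27.4 to 38.0 lay above that of the next, Creld2 (17.5 ± 1.92). Creld2, Manf (15.8 ± 1.64), Sdf2l1 (13.5 ± 0.99) and Dnajc3 (13.2 ± 4.05) overlapped with their neighbours in that order. Dnajb11 (10.7 ± 0.67), Dnajb9 (9.05 ± 0.23), Hsp90b1 (8.90 ± 3.90) and Hyou1 (7.71 ± 2.23) came last, and of these Dnajb11 lay above Dnajb9 in every AP library. In AP_OCA replicates 1, 3 and 4 Manf (44.3 ± 8.82 CPM per kb), Calr (42.1 ± 8.16) and Hsp90b1 (39.5 ± 9.77) stood next to each other after Hspa5, with overlapping ranges. In AP the range of Hsp90b1, 3.16 to 11.5 CPM per kb, had held that of Dnajb9 and lay below that of Calr.

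Over the 7 libraries most members followed a shared pattern. The Pearson correlation of log2(CPM + 1) of each member with the mean standardised pattern of the other 9 was 0.93 for Hspa5, 0.92 for Dnajb11, 0.89 for Sdf2l1, 0.86 for Hsp90b1, 0.83 for Calr, 0.81 for Dnajc3, 0.78 for Creld2 and 0.76 for Manf, but 0.52 for Dnajb9 and 0.30 for Hyou1. The closest pair was Dnajc3 and Hsp90b1 (0.95), which share their low value in AP replicate 3, and the least alike was Hyou1 and Manf (-0.11). Among 6917 other genes averaging 5 CPM or more, those most like the mean member pattern were Ero1l (0.98), Pdia6 (0.98), Pdia3 (0.98), Sel1l (0.97) and Asah1 (0.96). Ero1l encodes the ER oxidase that reloads disulphide isomerases, Pdia6 and Pdia3 encode such isomerases, Sel1l a scaffold of ER-associated degradation and Asah1 the lysosomal acid ceramidase. All these correlations are over the same 7 libraries and take in the difference between the groups, and they are descriptions only. The share of other genes that reach the correlations of the members was not computed.

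The promoters of the members are shown because ER chaperone genes are the textbook carriers of the ER stress response element (ERSE). This element joins CCAAT, a site for the factor NF-Y, to CCACG, a site for ATF6 and XBP1, across a spacer of 9 bases of any kind. RefSeq promoter windows on build GRCm38.p6, from 250 bases before to 50 bases after each transcript start, were found for 8 of the 10 members; Hyou1 and Manf had no entry. Both strands were searched. Upstream stretches of Hsp90b1 (chr10:86705445-86705694, minus strand) and Hspa5 (chr2:34771840-34772089, plus strand) are printed 5′ to 3′ on the strand of the gene, with each ERSE in capitals. They are followed by short stretches around the element in Dnajc3 (chr14:118937822-118937850, plus strand), Creld2 (chr15:88819515-88819543, plus strand) and Calr (chr8:84847070-84847098, minus strand).
Hsp90b1: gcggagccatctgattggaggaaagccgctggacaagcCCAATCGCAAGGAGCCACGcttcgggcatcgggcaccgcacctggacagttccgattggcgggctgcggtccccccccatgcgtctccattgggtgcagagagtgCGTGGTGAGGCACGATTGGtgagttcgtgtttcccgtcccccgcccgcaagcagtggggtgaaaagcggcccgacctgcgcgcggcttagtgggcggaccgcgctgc
Hspa5: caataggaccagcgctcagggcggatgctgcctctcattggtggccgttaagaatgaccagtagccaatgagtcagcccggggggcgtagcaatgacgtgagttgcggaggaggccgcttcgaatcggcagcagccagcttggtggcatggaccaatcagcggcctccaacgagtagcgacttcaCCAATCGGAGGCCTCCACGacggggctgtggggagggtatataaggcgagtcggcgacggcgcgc
Dnajc3: cacaaCCAATCAGCGCCAACCACGacccg
Creld2: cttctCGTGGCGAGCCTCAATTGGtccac
Calr: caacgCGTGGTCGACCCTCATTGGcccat

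The complete element was present in 5 of the 8 members with a window, where 37 of all 27025 genes with a window held it (0.137%). Those 37 include the 5 members. Of the lists compared below, 2 of 22 other ER folding factors with a window held it (Canx and Pdia6). So did 2 of 10 genes of ER-associated degradation (Derl3 and Syvn1). It was in 0 of 15 sensors and transcription factors, 0 of 15 cytosolic chaperones and 0 of 7 mitochondrial chaperones. Hsp90b1 held it on both strands, beginning 212 and 107 bases upstream of the start, and its window was the 1 of 32851 windows that held it at least 2 times. In Hspa5 it began 65 bases upstream, in Dnajc3 105, in Creld2 126 and in Calr 162, in the last 2 on the opposite strand. The Dnajc3 window is the 1 of 8 whose first transcribed bases were not found in an annotated transcript of the gene, so its distance is from RefSeq's start alone. Distances in the other windows are from the RefSeq start too, and annotated starts can differ. The annotated Hspa5 gene begins at 34771970, upstream of its ERSE. ERSE was first described in promoters of the GRP78, GRP94 and calreticulin genes, so its presence in Hspa5, Hsp90b1 and Calr is no independent result. Dnajb11 (chr16:22857847-22857867, plus strand) instead held the related ERSE-II, which is ATTGG and CCACG with 1 base of any kind between them, beginning at base 8 of the transcript; it occurs in 0.0444% of genes with a window, and ATTGG is also the NF-Y box CCAAT read on the other strand. Hspa5 also held the core of the unfolded protein response element, TGACGTG, 157 bases upstream (2.22% of genes).
Dnajb11: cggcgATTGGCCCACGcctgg

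Dnajb9 and Sdf2l1 held no complete ERSE in their windows. They did hold its parts, CCACG and CCAAT, at other distances; these short words occur in 35.5% and 41.1% of genes, and every complete ERSE contains both. The Dnajb9 stretch before the RefSeq start (chr12:44210069-44210318, minus strand) is given for comparison, with these parts in capitals. The annotated Dnajb9 gene begins farther upstream, at 44210326, so this stretch lies inside the gene. Bases upstream of that annotated start were not searched.
Dnajb9: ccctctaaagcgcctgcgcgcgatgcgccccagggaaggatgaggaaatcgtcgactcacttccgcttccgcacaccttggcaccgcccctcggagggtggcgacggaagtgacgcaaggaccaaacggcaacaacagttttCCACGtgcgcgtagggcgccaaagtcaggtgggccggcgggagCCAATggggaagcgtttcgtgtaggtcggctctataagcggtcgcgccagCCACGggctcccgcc
The members with a complete ERSE spanned log2 fold changes of 0.38 (Calr) to 2.23 (Hsp90b1) in the 7 libraries. Those without it in their windows, Dnajb11 with its ERSE-II included, spanned 0.042 (Dnajb9) to 0.51 (Sdf2l1). Manf (1.45) and Hyou1 (0.0025) had no window and fall in neither group. A link between motif and fold change was not tested. Of the 32 other genes with an ERSE, 10 were tested, none was called, 6 had a positive log2 fold change and their median was 0.11. They ran from Acacb, an acetyl-CoA carboxylase gene (-0.79 ± 0.21 SE, adjusted p = 0.0587 by limma, the lowest of the 10), to Pdia6 (0.58 ± 0.17, adjusted p = 0.0675). A match of letters is a description, not a bound site.

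**Figure D4:**
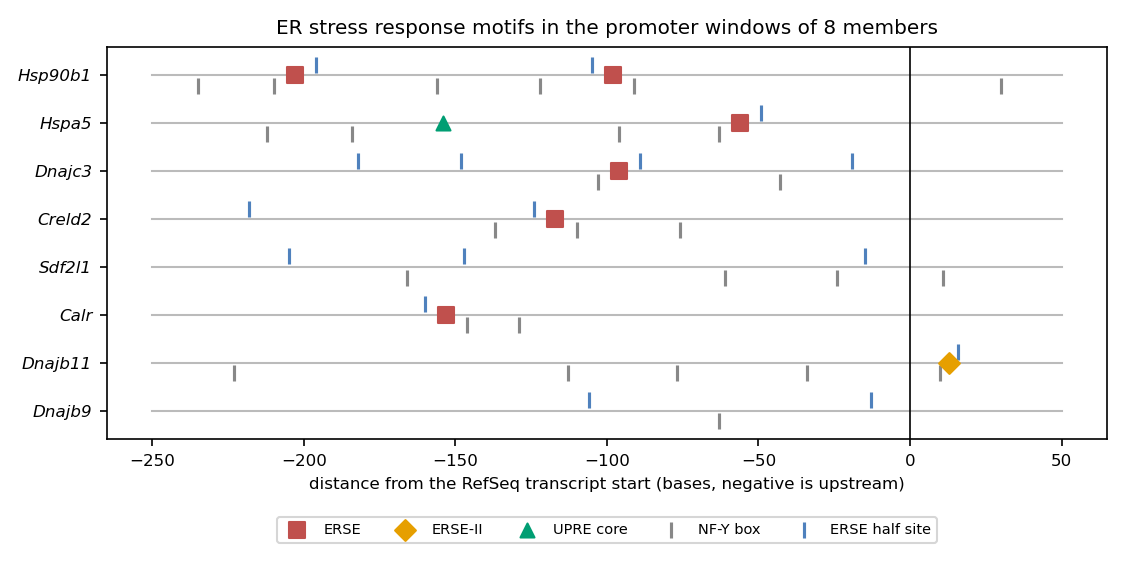
Position of ER stress motifs in the RefSeq promoter windows of 8 members (rows, from the highest log2 fold change in 7 libraries at the top), by distance in bases from the transcript start; squares are complete ERSEs, the diamond ERSE-II, the triangle the UPRE core, and ticks the ERSE's parts on their own or within it. Hsp90b1 has 2 squares, Hspa5, Dnajc3, Creld2 and Calr have 1 each, and Sdf2l1 and Dnajb9 have none.

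Of the 27 other folding factors of the ER on the list, 25 were tested without AP_OCA replicate 2; 2 were called higher, none lower and 23 did not pass, with a median log2 fold change of 0.35. The oxidase gene Ero1l rose by 0.81 ± 0.19 SE (53.9 ± 8.42 CPM in AP_OCA, n = 3, and 30.4 ± 5.08 CPM in AP, SD, n = 4; adjusted p = 0.0464 by limma), and the disulphide isomerase gene Pdia3 by 0.95 ± 0.23 (60.7 ± 13.4 CPM in AP_OCA and 31.3 ± 8.15 CPM in AP; adjusted p = 0.0486). Both kept their direction when 1 further library was left out, but Ero1l was then called in 1 of 7 fits and Pdia3 in 0 of 7. Every AP_OCA library lay above every AP library in 7 of the 25, and below in 1, where 11.1% of all tested genes lay above and 12.1% below. Of all tested genes 0.854% were called higher. With all 8 libraries none of the 25 was called, and the median was 0.16. Ero1l, at 12.4 CPM in AP_OCA replicate 2, then had 0.31 ± 0.46 SE (adjusted p = 0.733 by limma). Pdia3, at 118 CPM in that library, had 1.19 ± 0.33 (adjusted p = 0.26). Of 15 genes of ER-associated degradation, which sends misfolded proteins to the proteasome, 13 were found under the listed symbols and tested, none was called and the median was 0.16. The lowest p belonged to Sel1l (0.58 ± 0.17, adjusted p = 0.0702). With all 8 libraries none of these 13 was called, the median was -0.20 and Sel1l stood at 0.067.

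Of 17 tested sensors and transcription factors of the unfolded protein response, 1 rose, 2 fell and 14 did not pass, and the median was -0.33. Ddit3, the stress transcription factor CHOP, rose by 1.08 ± 0.20 SE (adjusted p = 0.0271 by limma). Eif2ak3, which encodes the sensor PERK, fell by 1.03 on the log2 scale (SE 0.21, adjusted p = 0.0310), at 53.0 ± 12.4 CPM in AP_OCA (SD, n = 3) and 109 ± 23.9 CPM in AP (n = 4). The transcription factor gene Atf3 fell by 0.86 (SE 0.19, adjusted p = 0.0403). Each of the 3 was called in 2 of 7 fits that left out 1 further library, with its direction kept, and Ddit3 stood at 0.58 once trends with transcript length and GC content were taken out (adjusted p = 0.126). In 6 of the 17 every AP_OCA library lay below every AP library, and in 1 above. Of all tested genes 12.1% lay below and 11.1% above, while 0.854% were called higher and 1.59% lower. With all 8 libraries none of the 17 was called and the median was -0.55. Xbp1, whose product binds the ERSE together with ATF6, had -0.27 ± 0.19 (adjusted p = 0.392) and Atf6 had 0.13 ± 0.21 (adjusted p = 0.730); gene totals do not show the splicing of Xbp1.

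Chaperones of other compartments, among them the relatives of the ER members, were tested in the same fit. Of 18 cytosolic chaperones none rose, 3 fell and 15 did not pass (median 0.05): the heat-inducible Hsp70 genes Hspa1b (-1.98 ± 0.23 SE) and Hspa1a (-1.96 ± 0.28), near-identical copies between which reads may be divided, and the co-chaperone gene Bag3 (-0.82 ± 0.19). With 1 further library left out, Hspa1b was called in 7 of 7 fits, Hspa1a in 6 and Bag3 in 1. In 7 of the 18 every AP_OCA library lay below every AP library, and in 3 above. Of all tested genes 12.1% lay below and 11.1% above, and 1.59% were called lower. With all 8 libraries none of the 18 was called and the median was -0.09. The constitutive cytosolic Hsp70 gene Hspa8 stood at -0.40 ± 0.16 and the mitochondrial Hsp70 gene Hspa9 at 0.11 ± 0.21, beside 0.98 ± 0.28 for Hspa5; none of the 3 passed. Of the cytosolic counterparts of Hsp90b1, Hsp90ab1 stood at -0.62 ± 0.23 and Hsp90aa1 at 0.60 ± 0.44, and the mitochondrial Trap1 at 0.25 ± 0.19, none passing. Hsp90aa1, like Hsp90b1, was lowest in AP replicate 3 (34.0 CPM, against 95.3 to 144 CPM in the other AP libraries). Of 8 mitochondrial chaperones none was called and the median was 0.27 (0.23 with all 8 libraries). Clpp had the lowest p (0.52 ± 0.24, adjusted p = 0.187). Close relatives of 3 members did not pass either: Sdf2 at 0.48 ± 0.22 beside Sdf2l1, Creld1 at -0.09 ± 0.27 beside Creld2, and Canx, the membrane-bound counterpart of Calr, at 0.46 ± 0.23. Differences in response between members and these relatives were not tested.

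**Figure D5:**
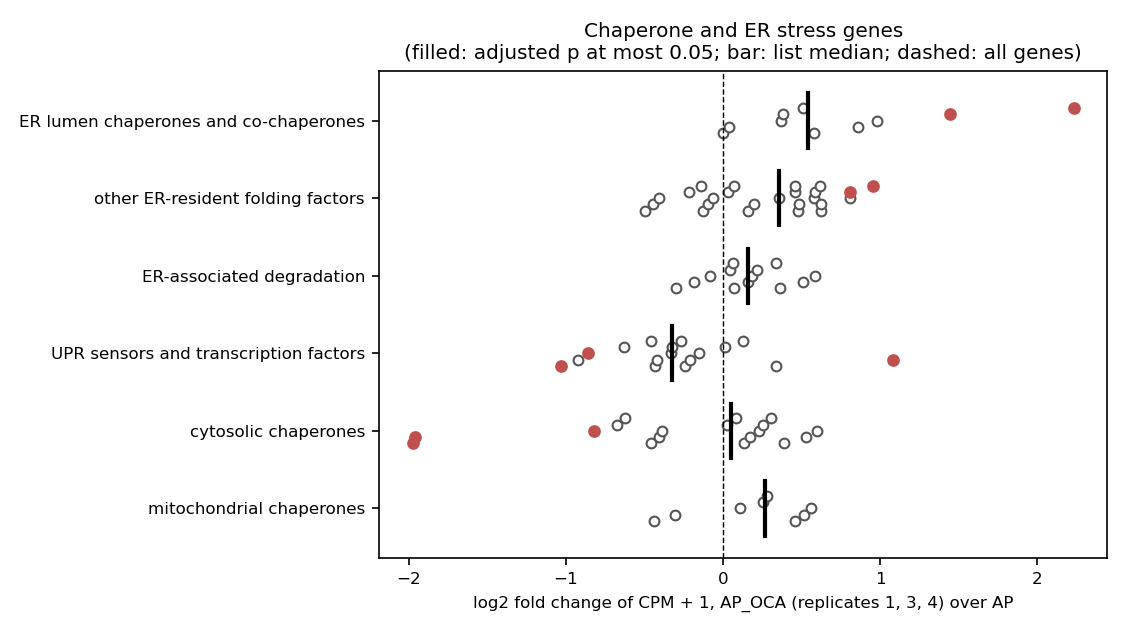
Log2 fold change of CPM + 1, AP_OCA replicates 1, 3 and 4 over AP (horizontal axis), of each tested gene in 6 lists (rows); filled points were called by limma at an adjusted p of at most 0.05, bars are list medians and the dashed line is the median of all genes. The medians are 0.54 for the ER lumen chaperones, 0.35 for other ER folding factors, -0.33 for sensors and transcription factors of the unfolded protein response and 0.05 for cytosolic chaperones.

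Markers of other cell types were set beside these results, without AP_OCA replicate 2. Endothelial markers, led by Plvap and Eng, summed to 45.2 to 105 CPM in AP_OCA and 119 to 149 CPM in AP, and 2 of 10 lay below every AP library, where 12.1% of all tested genes did so. The endothelial co-receptor gene Eng was called lower (12.8 ± 3.84 CPM in AP_OCA, n = 3, and 25.3 ± 1.29 CPM in AP, SD, n = 4; log2 fold change -0.97 ± 0.21 SE, adjusted p = 0.0406 by limma). Stellate and fibroblast markers, led by Col3a1 and Dcn, summed to 123 to 195 CPM in AP_OCA and 196 to 257 CPM in AP, with 5 of 10 below every AP library. The collagen gene Col1a1 was called lower (11.8 ± 6.15 CPM in AP_OCA and 29.2 ± 4.42 CPM in AP; -1.38 ± 0.32 SE, adjusted p = 0.0488), and stood at -0.88 without AP_OCA replicate 4. These 2 were the called markers of the 8 cell type lists, where 2.44% of all tested genes were called in either direction. With 1 further library left out, Eng was called in 1 of 7 fits and Col1a1 in 2. In AP_OCA replicate 2, Eng stood at 45.9 CPM, above every AP library, and Col1a1 at 29.7 CPM, inside the AP range. Ductal markers, led by Krt19 and Muc1, summed to 375 to 473 CPM in AP_OCA and 274 to 339 CPM in AP, with 3 of 8 above every AP library, where 11.1% of all tested genes lay above. None of the 10 plasma cell markers lay above every AP library, and Iglc1 and Tnfrsf17 were at 0 in all 7. The part of these cells in the chaperone values was not tested.

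Both members that rose overlap other genes on the annotation, and the sources used here do not state whether strand was used in counting. In mm10, Hsp90b1 lies on chromosome 10 (86690209 to 86705509, minus strand) and overlaps 1810014B01Rik, Gm15344 and Gm25745, each at no more than 1.05 CPM in any library. Manf lies on chromosome 9 (106838312 to 106891979, minus strand), where its annotated locus spans Rbm15b and part of Dcaf1. Rbm15b stood at 16.1 to 23.7 CPM in AP_OCA replicates 1, 3 and 4 and 22.9 to 28.7 CPM in AP (-0.36 ± 0.19 SE, adjusted p = 0.249 by limma), and Dcaf1 at 8.23 to 9.61 CPM in AP_OCA and 4.87 to 10.1 CPM in AP (0.087 ± 0.25, adjusted p = 0.856). Hspa5, Sdf2l1, Creld2, Hyou1, Dnajc3 and Calr overlap no other annotated gene.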

How the data were processed

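The authors deposited 1 table of log2 values per gene for all 8 libraries. From the values, 0.01 had been added to a number resembling a count before taking log2, which sets the lowest value (-6.64). The result was read as quantile normalised across libraries, because every column shares its highest value (20.57) and the linear sums are nearly equal. Per the labels' protocols, total RNA went into a SMARTER mRNA-seq kit, and per the submitters' processing notes the build was mm10; aligner, counter and annotation are not given in the sources used here. Depth is unknown, and 1 CPM lay at the 9th to 14th distinct value in 7 libraries and the 65th in AP_OCA replicate 2. Columns were matched to samples by title. Values were returned to the linear scale and scaled to 1000000. Then log2(CPM + 1) of genes averaging 1 CPM or more was tested with limma 3.58.1 (R 4.3.3, trend, robust moderation). The fit was checked on simulated data with the spread of the 7 libraries, so the check does not cover the departure of AP_OCA replicate 2. Each comparison was run with and without AP_OCA replicate 2, and under other pseudocounts, filters, scalings, moderation, library weights, a replicate block, a length and GC correction and left-out libraries. Called genes of the other lists were added to these after seeing the data. Lengths, GC content and loci came from GENCODE M21; 7 of 8 promoter windows, all but that of Dnajc3, matched a transcript of the gene. Members and lists were chosen with earlier results of these data known. Named were the 10 members, per other ER or chaperone list up to 4 called genes or the lowest p, the 5 most similar patterns, abundant markers, and called or defining markers and genes set beside a member (paralogues, Xbp1, Atf6, ERSE holders, overlapping loci), the last chosen after their values were seen.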

Additional observations from a re-analysis of the deposited data

How the results depend on the processing

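Of the members, Hsp90b1 and Manf kept a positive log2 fold change under all 13 alternative settings and all left-out libraries in both comparisons. Over 8 libraries, 0 members and 0 genes were called under every alternative but limma quality weights (5 members, 1052 genes); with 1 library left out the ranges were 0 to 2 members and 0 to 266 genes, the higher figures without AP_OCA replicate 2. Over 7 libraries, with 2 members and 266 genes called, no filter on low values gave 0 and 0, limma without trend 1 and 14, quality weights 5 and 1675, and the replicate block 4 and 559. There, 156 genes were called at a pseudocount of 0.1, 113 on deposited log2 values, 115 with the length and GC trend removed (3 members, Dnajc3 added) and 21 with that and the block. With 1 further library left out the ranges were 1 to 2 members and 7 to 973 genes, the highest without AP_OCA replicate 1; leaving out any of the 7 moved the gene count by over 1.5 times. Signs turned for Hyou1 over 8 libraries (0.042 with quality weights, 0.049 with the length and GC trend removed, also with the block; -0.61 to 0.0025 over left-out libraries), and for Dnajb9 (0.044 with weights; -0.39 to 0.042) and Hspa5 (-0.022 to 0.98, the lowest without AP_OCA replicate 1). Over 7 libraries they turned for Hyou1 (-0.0052 with median centring, -0.060 scaled without the digestive enzymes; -0.30 to 0.40) and for Dnajb9 (-0.020 scaled without the enzymes, -0.39 with the length and GC trend removed, -0.45 with that and the block; -0.027 to 0.11). The 10 called genes of the other lists, markers included, kept their direction under these settings. The causes were not tested. Same-numbered libraries did not deviate together (r of -0.166 to 0.116), so the numbers are not taken to pair them; over 7 libraries the block sets aside AP replicate 2, which has no partner.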
